A study of Mus musculus with 12 samples.

Results

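Regions that carried trimethylated lysine 4 of histone H3 (H3K4me3) in every condition, and trimethylated lysine 27 (H3K27me3) in some conditions but not in others, were described in primary mouse embryonic fibroblasts (MEFs) by chromatin immunoprecipitation with sequencing (ChIP-seq). H3K4me3 peaks that overlapped were joined over the 4 H3K4me3 peak lists into 16628 regions, of which 13107 had a peak of all 4 lists. Of these 13107 regions, 680 (5.19%, 95% interval 4.81 to 5.58) overlapped an H3K27me3 peak of 1, 2 or 3 of the 4 H3K27me3 lists by at least 1 bp. A further 1268 regions had H3K27me3 in all 4 lists and 11159 had it in none. The conditions were lincRNA-p21 knockout (KO, lincRNA-p21-/-) cells with doxorubicin (dox), KO mock, wild-type (WT, lincRNA-p21+/+) dox and WT mock. All cells were of a hybrid 129/B6 background, and doxorubicin, a DNA-damaging drug, was given at a labelled 0.5 mM for 24 h. Each mark and condition had 1 library, so that no difference has a replicate check, no p-value was computed, and differences between conditions cannot be told apart from differences between libraries. For that reason the 680 regions are called regions of varying H3K27me3. The regions were chosen by H3K27me3 presence in the same lists, so the patterns, gains and losses of H3K27me3 are a description.

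H3K4me3 is laid down at the starts of active genes, and at many silent developmental genes, by the SET1 and MLL methyltransferase complexes. H3K27me3 is laid down by Polycomb repressive complex 2 and marks genes held silent. Promoters with both marks are called bivalent, a state known from embryonic stem cells and kept at many developmental genes in fibroblasts. The transcript removed in KO cells, lincRNA-p21, belongs to the long noncoding RNAs and is under the control of p53. The study's title links it to genes targeted by Polycomb and to the checkpoint before DNA replication.

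The 4 H3K27me3 lists held 17828 peaks in KO dox, 16580 in KO mock, 17517 in WT dox and 16160 in WT mock cells. Each peak has a score of the authors, minus 10 times the log10 of the peak caller's p-value, and no listed score was under 80. Their median scores lay between 141 and 155, and they covered 35.9 Mb in KO dox, 36.3 Mb in KO mock, 39.0 Mb in WT dox and 48.0 Mb in WT mock cells. Peak numbers ran in order along each chromosome, and 39.0 to 47.2% of them were missing from the H3K27me3 lists. What the missing numbers stand for is not given in the sources used here. Read depth is unknown, and the 95% intervals given here are exact binomial intervals that cover counting error over regions, which are not independent of each other. Positions are those of mouse build mm9 and count from 1. No gene names or sequences are given, because no annotation or sequence of that build was used here. For the same reason the fibroblast label was not checked against marker genes.

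Regions of varying H3K27me3 lacked the mark most often in WT dox cells. All 14 possible patterns of presence were found. The most frequent, with 105 regions (15.4%, 12.8 to 18.4), had H3K27me3 in KO dox, KO mock and WT mock but not in WT dox cells. The least frequent pattern in 3 lists, absent in KO mock, had 31 regions, while 54 were absent in KO dox and 43 in WT mock cells alone. H3K27me3 in a single list was found at 77 regions in KO dox, 70 in KO mock, 20 in WT dox and 87 in WT mock cells. The 2 patterns that follow genotype held 48 regions with the mark in both KO lists and 16 with the mark in both WT lists. The 2 patterns that follow treatment held 25 regions with the mark in both dox lists and 69 with the mark in both mock lists. In all, 254 regions had H3K27me3 in 1 list, 193 in 2 lists and 233 in 3 lists.

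For a comparison in 1 unit, H3K27me3 peaks that overlapped were joined over the 4 H3K27me3 lists into 24298 H3K27me3 regions, of which 2058 touched an H3K4me3 region of all 4 lists and 22240 lay elsewhere. At least 1 list was lacking at 31.1% (29.1 to 33.2) of those at H3K4me3, or 641, and at 77.9% (77.3 to 78.4) of those elsewhere, or 17322. Regions at H3K4me3 and elsewhere were not matched for length or score. The part of either in this contrast and in those that follow was not tested. These 641 and 17322 varying H3K27me3 regions had different mixes of patterns. Regions of 3 lists made up 31.5% (27.9 to 35.3) of the 641 at H3K4me3 and 15.01% (14.5 to 15.6) of those elsewhere. The pattern absent in WT dox cells alone made up 12.2% (9.74 to 14.95) at H3K4me3 and 3.30% (3.04 to 3.58) elsewhere. The pattern with H3K27me3 in WT dox cells alone made up 3.59% (2.29 to 5.34) at H3K4me3 and 15.7% (15.1 to 16.2) elsewhere. For KO mock cells alone the shares were 13.9% (11.3 to 16.8) at H3K4me3 and 11.8% (11.3 to 12.2) elsewhere, with intervals that overlap.

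**Figure D1:**
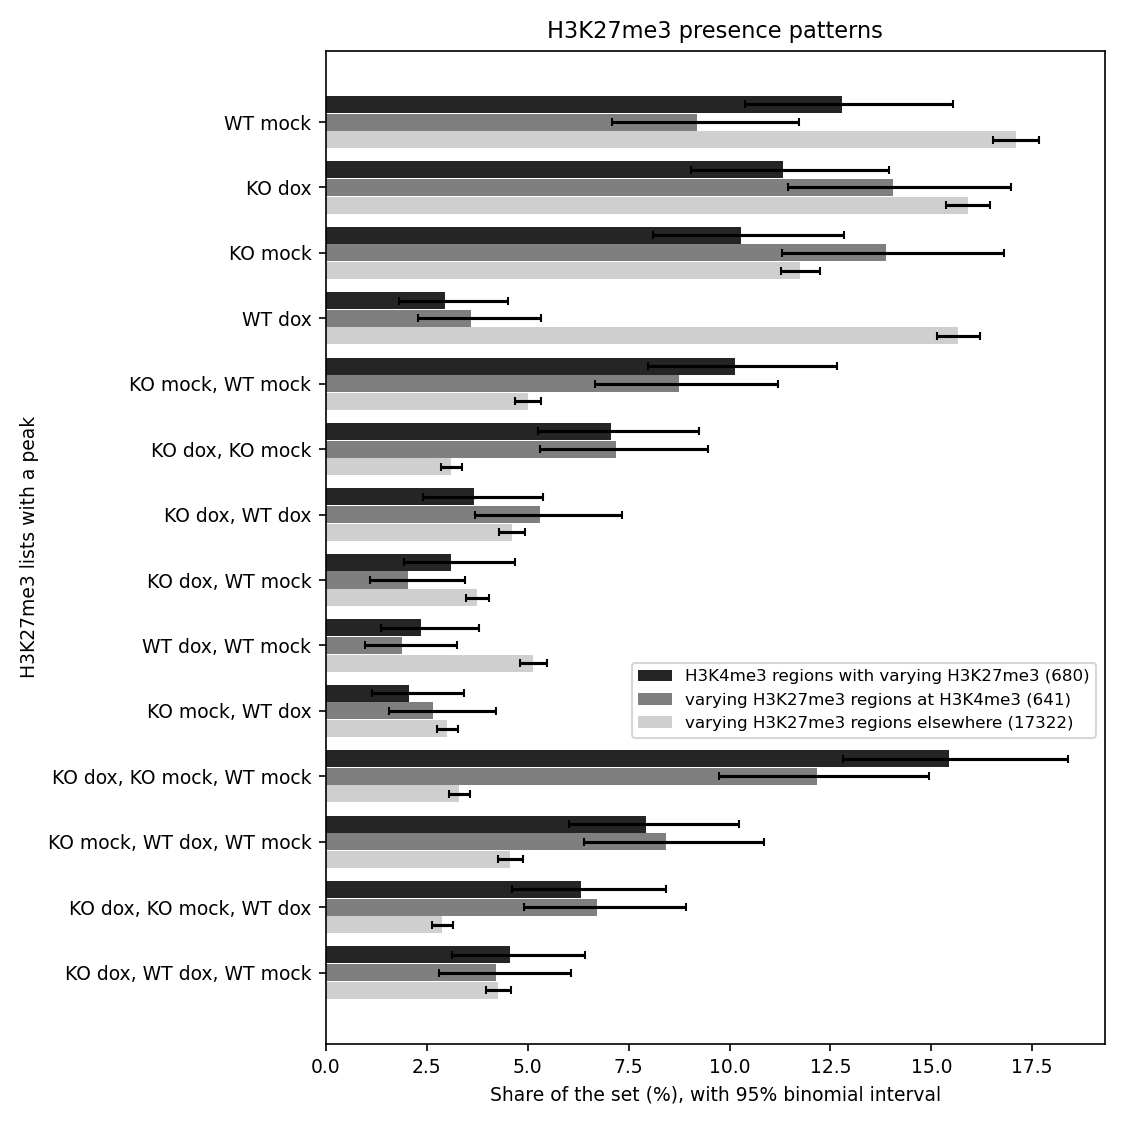
Share of each H3K27me3 presence pattern among the 680 H3K4me3 regions of varying H3K27me3 (black bars), the 641 varying H3K27me3 regions at H3K4me3 (grey bars) and the 17322 varying H3K27me3 regions elsewhere (light bars), in percent with 95% binomial intervals; each row names the lists with a peak. The row of KO dox, KO mock and WT mock has the longest black bar, at 15.4%, and the WT dox row has 2.94% of H3K4me3 regions, 3.59% of H3K27me3 regions at H3K4me3 and 15.7% of those elsewhere.

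Counted by list, H3K27me3 was found at 350 of the 680 regions in KO dox (51.5%, 47.6 to 55.3), 403 in KO mock (59.3%, 55.5 to 63.0), 203 in WT dox (29.9%, 26.4 to 33.4) and 383 in WT mock cells (56.3%, 52.5 to 60.1). The WT dox list was thus lowest at these regions, although it held more peaks and covered more sequence than the KO mock list, which was highest. Of the 641 varying H3K27me3 regions at H3K4me3, 51.6% had a peak in KO dox, 59.8% in KO mock, 32.8% in WT dox and 46.6% in WT mock cells. Among varying H3K27me3 regions elsewhere the 4 shares lay closer together, at 37.8% in KO dox, 33.6% in KO mock, 40.1% in WT dox and 43.1% in WT mock cells. When each H3K27me3 list was reduced to its highest-scoring peaks with the covered length of the shortest list, a setting chosen after the data had been seen, the shares were 62.8% in KO dox, 68.9% in KO mock, 35.7% in WT dox and 31.8% in WT mock cells. In that setting both KO lists stood above both WT lists, and WT dox was no longer the lowest. Peaks of the WT mock list were the widest, with a median of 2015 bp in the whole list against 1310 to 1475 bp in the 3 others. The part of peak width in these counts was not tested.

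In dox-treated cells, KO against WT gave more gains than losses. H3K27me3 was present in KO and absent in WT at 251 regions, called gained here, and present in WT and absent in KO at 104, called lost. These were 12.9% and 5.34% of the 1948 H3K4me3 regions with H3K27me3 in any list. Over all 24298 H3K27me3 regions 19.5% were gained and 20.7% were lost in the same comparison. Gains made up 70.7% (65.7 to 75.4) of the 355 changed H3K4me3 regions. Counted as H3K27me3 regions, gains made up 68.2% (62.9 to 73.1) of those changed at H3K4me3 and 47.9% (46.9 to 48.9) of those changed elsewhere. With H3K27me3 within 1 kb also counted, 242 H3K4me3 regions were gained and 164 were lost, and at equal covered length 283 were gained and 87 were lost.

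In mock-treated cells, KO against WT gave 175 H3K4me3 regions gained and 155 lost. These were 8.98% and 7.96% of the H3K4me3 regions with any H3K27me3. Over all H3K27me3 regions 15.6% were gained and 22.0% were lost. Gains made up 53.03% (47.5 to 58.5) of the changed H3K4me3 regions. Counted as H3K27me3 regions, 195 were gained and 111 lost at H3K4me3, so that gains made up 63.7% (58.1 to 69.1) there and 40.6% (39.6 to 41.7) elsewhere. The direction at H3K4me3 regions depended on the overlap rule, since counting H3K27me3 within 1 kb gave 198 gained and 222 lost, and asking for overlap with the H3K4me3 peak of the same condition gave 166 gained and 182 lost. At equal covered length 349 were gained and 81 were lost, a more one-sided gain than that of KO against WT in dox in the same setting.

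Doxorubicin against mock in KO cells gave 154 regions gained and 207 lost. These were 7.91% and 10.6% of the H3K4me3 regions with any H3K27me3. Over all H3K27me3 regions 21.0% were gained and 18.2% were lost, the opposite order. Gains made up 42.7% (37.5 to 47.9) of the changed H3K4me3 regions. Counted as H3K27me3 regions, gains made up 43.2% (38.1 to 48.3) of those changed at H3K4me3 and 53.99% (52.96 to 55.01) of those changed elsewhere. Losses outnumbered gains under each of the 9 other settings tried.

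Doxorubicin against mock in WT cells gave 102 regions gained and 282 lost. These were 5.24% and 14.5% of the H3K4me3 regions with any H3K27me3. Over all H3K27me3 regions 19.1% were gained and 21.6% were lost. Gains made up 26.6% (22.2 to 31.3) of the changed H3K4me3 regions. Counted as H3K27me3 regions, gains made up 36.2% (30.97 to 41.7) of those changed at H3K4me3 and 47.3% (46.3 to 48.3) of those changed elsewhere. At equal covered length the direction turned, with 193 regions gained and 165 lost, while losses outnumbered gains under the other 8 settings. The comparisons share libraries, since the WT dox list enters both this one and that of KO against WT under doxorubicin, and the difference between the genotypes in their dox effect was not tested.

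**Figure D2:**
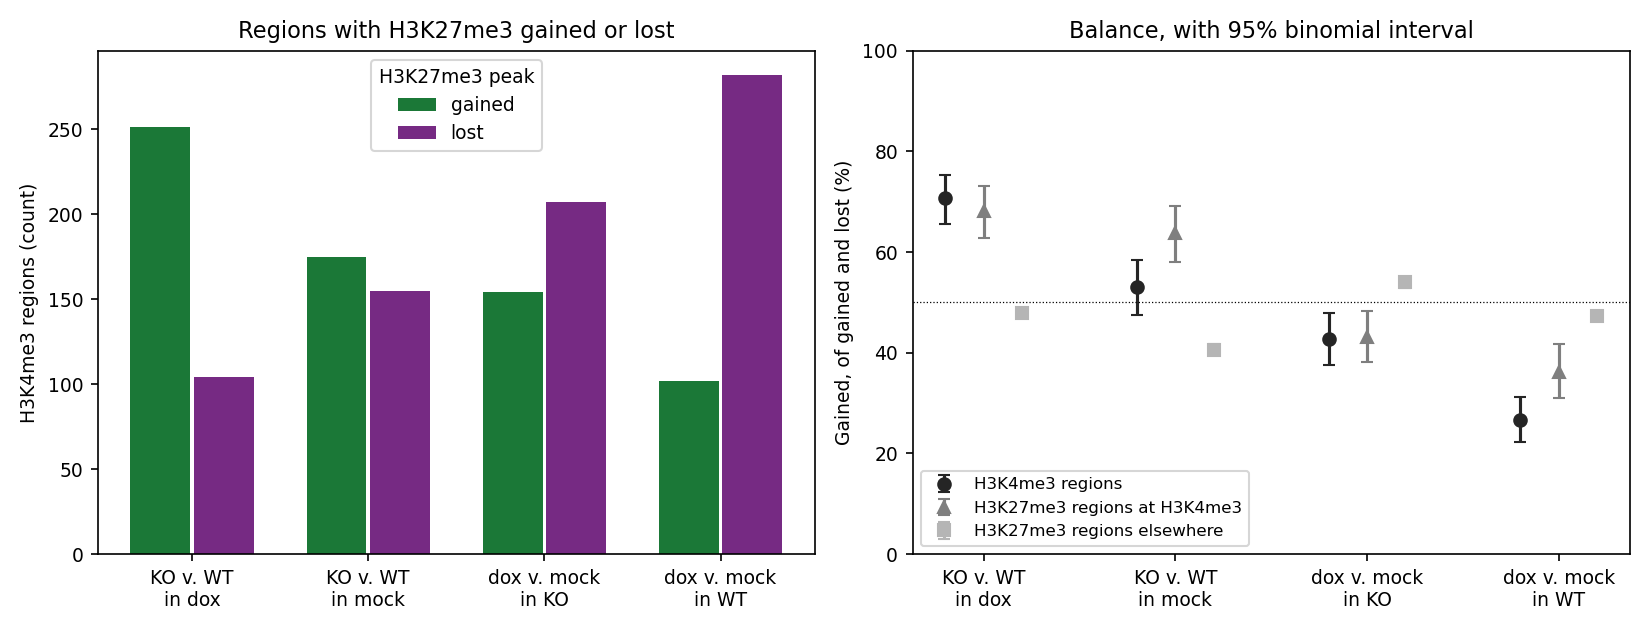
Left, counts of H3K4me3 regions with an H3K27me3 peak gained (green) or lost (purple) in each comparison; right, gains as a percentage of gained and lost regions, with 95% binomial intervals, over H3K4me3 regions (circles), H3K27me3 regions at H3K4me3 (triangles) and H3K27me3 regions elsewhere (squares). At H3K4me3 regions the balance runs between 70.7% for KO against WT in dox and 26.6% for dox against mock in WT, over H3K27me3 regions at H3K4me3 between 68.2% and 36.2%, and elsewhere between 40.6% and 53.99%.

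H3K27me3 peaks at regions of varying H3K27me3 were weak and narrow beside those at regions with the mark in all 4 lists. Their median score was 159 in KO dox, 173 in KO mock, 143 in WT dox and 175 in WT mock cells, against 688, 767, 581 and 660 in the same lists where all 4 had the mark. Between 16.9 and 23.6% of the varying regions with a peak had a score under 100 in that list, against 0.631 to 2.05% of the regions of all 4 lists. The median score grew with the number of lists, in KO mock for example 107 at regions of 1 list, 142 at regions of 2 and 232 at regions of 3. Peaks scoring under 80 are not listed, so the number of lists at a region also depends on that floor. The highest score over the 4 lists was under 85 at 22 of the 680 regions and under 100 at 99, and on the other side of the rule 22 of the 1268 regions of all 4 lists had a lowest score under 85.

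**Figure D3:**
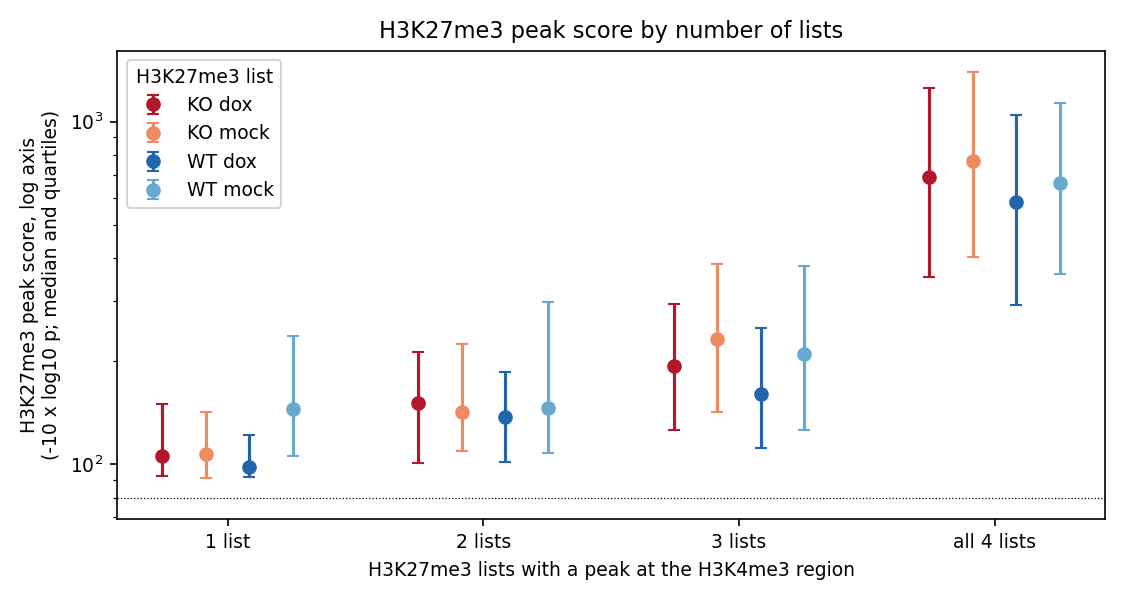
Median H3K27me3 peak score with quartiles (log axis) in each list at H3K4me3 regions with H3K27me3 in 1, 2, 3 or all 4 lists; the dotted line is the score floor of 80. In KO mock the median is 107 at regions of 1 list and 767 at regions of all 4 lists.

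At most of these regions H3K27me3 reached over 1 edge of the H3K4me3 region. Position was read from the lowest start and highest end of a list's overlapping peaks, called outer ends here. Separate peaks with a gap between them can thus also enclose a region. The outer ends passed 1 edge at 69.5 to 77.02% of the regions with a peak. The outer ends enclosed the region at 11.7% in KO dox, 15.1% in KO mock, 8.87% in WT dox and 17.8% in WT mock cells. At regions of all 4 lists the enclosed shares were 65.2%, 67.6%, 59.3% and 69.2% in the same order, with WT dox again lowest. The median share of the H3K4me3 region covered by H3K27me3 was 42.0% in KO dox, 48.5% in KO mock, 39.3% in WT dox and 45.0% in WT mock cells, against 94.7 to 100% at regions of all 4 lists. At the overlap limit of the rule, 16 to 24 regions per list had at most 100 bp of overlap, and 39 of the 11159 regions without H3K27me3 had a peak of some list within 100 bp.

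Where a list had no H3K27me3 at a region, the nearest peak was often close by. A peak lay within 1 kb at 75 of the 330 regions lacking it in KO dox (22.7%), 77 of 277 in KO mock (27.8%), 143 of 477 in WT dox (29.98%) and 57 of 297 in WT mock cells (19.2%). It lay beyond 50 kb at 32.4%, 38.6%, 35.6% and 44.4% in the same order. By these limits, chosen after the data had been seen, 142 regions (20.9%) had a peak within 1 kb in every list that lacked it, and 195 (28.7%) had none within 50 kb in any such list. The first kind, with a peak nearby in every lacking list, had a median highest score of 394, and the second, where no peak was near, had 155. KO against WT in dox gained 67 and lost 22 regions of the first kind and gained 80 and lost 28 of the second. Dox against mock in WT gained 12 and lost 76 of the first and gained 35 and lost 68 of the second. Over all H3K27me3 regions the former comparison gained 19.5% and lost 20.7%, and the latter gained 19.1% and lost 21.6%. Both kinds are defined by the peaks of the lacking lists, and no matching kinds were counted elsewhere.

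**Figure D4:**
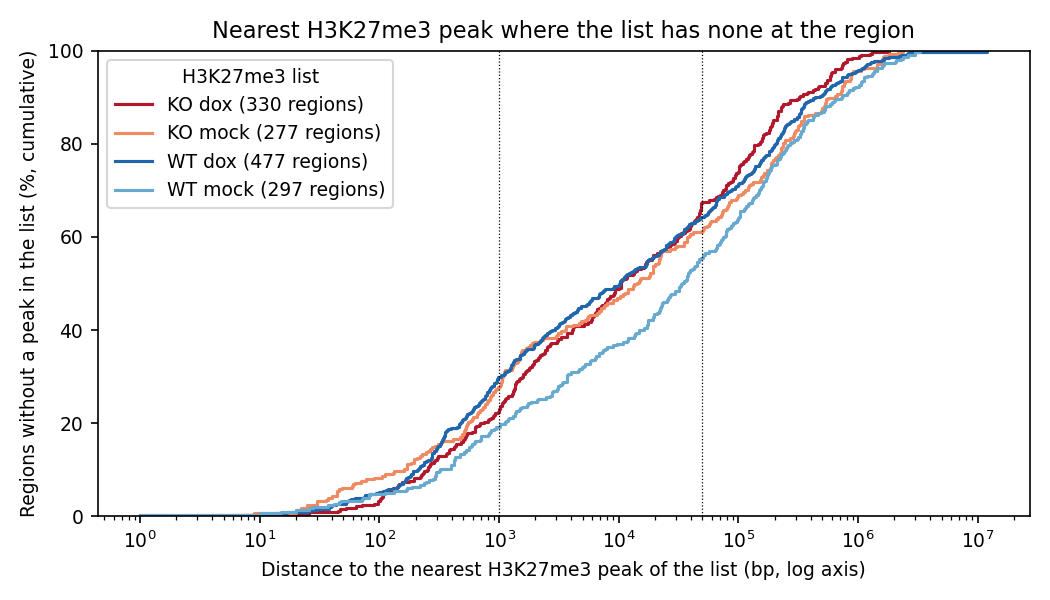
Cumulative percentage of the regions of varying H3K27me3 that lack a peak in a list, by distance to that list's nearest H3K27me3 peak (bp, log axis), 1 line per list; dotted lines stand at 1 kb and 50 kb. Within 1 kb the lines lie between 19.2% for WT mock and 29.98% for WT dox.

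At 167 of the 680 regions (24.6%, 21.4 to 27.97) the H3K27me3 peaks belonged to a joined H3K27me3 region that had peaks of all 4 lists. Every list thus had a peak in the joined region, but not every list had one at the H3K4me3 region. Peaks of different lists in a joined region need not overlap each other, and whether they form a common domain was not tested. At the 167 regions H3K27me3 was present at 59.3% in KO dox, 65.3% in KO mock, 33.5% in WT dox and 80.2% in WT mock cells. At these 167 regions dox against mock in WT cells gained 14 and lost 92, and KO against WT in dox gained 69 and lost 26. The other 513 regions, at which the H3K27me3 region itself lacked a list, had 88 gained and 190 lost with dox in WT cells. Over all H3K27me3 regions dox against mock in WT gained 19.1% and lost 21.6%, and KO against WT in dox gained 19.5% and lost 20.7%. The split into 167 and 513 regions was made from the same lists, and no matching split was counted elsewhere. Regions of varying H3K27me3 lay within 5 kb of an H3K27me3 region of all 4 lists in 31.8% of cases (28.3 to 35.4), and H3K4me3 regions with no H3K27me3 in 4.69% (4.30 to 5.10). The first share includes the 167 regions that overlap such a region, while regions with no H3K27me3 overlap none by definition. The difference between these shares thus follows in large part from how the classes were defined.

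The highest-scoring regions were named for each pattern by genotype or treatment and each pattern of 1 or 3 lists, 28 in all. The patterns of KO dox with WT mock and of KO mock with WT dox were not among them. The 28 regions, ranked by the lowest score among the lists with the mark, mainly had a peak nearby in the lacking lists. The scores of those nearby peaks were not examined. In 18 of the 28 every list without an overlap had a peak within 1 kb, and in 1 every such list had its nearest peak beyond 50 kb. The highest-scoring region with H3K27me3 in both dox lists was on chromosome 3 from 96131099 to 96133024, with H3K27me3 scores of 1105 in KO dox and 1069 in WT dox cells. Its nearest H3K27me3 peak was 512 bp away in KO mock and 133 bp away in WT mock cells. The next lay on the same chromosome from 96136862 to 96138813, where an 11109-bp peak of WT dox cells covered all 1952 bp and a KO dox peak scored 807. Both regions had higher H3K4me3 scores in dox cells, with 684 and 598 in KO dox against 190 and 260 in KO mock cells, and 866 and 706 in WT dox against 359 and 341 in WT mock cells. The whole H3K4me3 lists had median scores of 2141 in KO dox, 1162 in KO mock, 1526 in WT dox and 1512 in WT mock cells. As percentiles among the 13107 regions of each list, they had 17.2 and 15.5 in KO dox and 7.53 and 11.6 in KO mock cells. In WT cells the percentiles were 20.3 and 15.8 with dox and 9.42 and 8.83 with mock.

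Of the regions with H3K27me3 in both mock lists, the highest-scoring was on chromosome 9 from 20835153 to 20838473. Its scores were 2053 in KO mock and 1846 in WT mock cells, and the nearest peaks of the dox lists were 97 bp away in KO dox and 210 bp away in WT dox cells. On chromosome 2 from 118725856 to 118729530 the scores were 1416 in KO mock and 878 in WT mock cells, with the dox peaks 227 bp away in KO and 338 bp away in WT. The third, on chromosome 2 from 179758513 to 179762442, had 756 in KO mock and 908 in WT mock cells. In all 3 the overlap in mock cells was partial, between 33 and 1066 bp. Whether the nearby dox peaks are the same peaks with other ends was not tested.

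The regions with H3K27me3 in both KO lists were led by chromosome 12 from 54352605 to 54355363, with a score of 1340 in KO dox and 257 in KO mock cells. The nearest WT peaks were 143 bp away in dox and 423 bp away in mock cells. On chromosome 6 from 118015489 to 118017204 the KO scores were 233 in dox and 269 in mock cells, and the WT dox peak stopped 40 bp short. The regions with H3K27me3 in both WT lists were led by chromosome 15 from 75533660 to 75535658, with scores of 396 in WT dox and 446 in WT mock cells and KO peaks 254 bp away in dox and 160 bp away in mock cells. Its neighbour from 75507970 to 75510198, with WT scores of 253 in dox and 643 in mock cells, showed the same pattern. Each pattern by genotype thus again held partly overlapping peak ends.

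Among regions with H3K27me3 in a single list, the highest scores were 1332 in KO dox (chromosome 2 from 18615007 to 18617067), 283 in KO mock (chromosome X from 91611338 to 91613480), 252 in WT dox (chromosome 5 from 9265662 to 9266933) and 2535 in WT mock cells (chromosome 2 from 9798068 to 9801628). The WT dox region on chromosome 5 stood apart from the other named regions in distance, as the nearest peaks of the 3 other lists were 162166 to 163341 bp away. A 2414-bp peak covered it whole. Between the flanking peaks 2 numbers are missing in KO dox, 1 in KO mock and 4 in WT mock cells. The WT mock region on chromosome 2 was overlapped by 34 bp of an 11762-bp peak, and the other lists had a peak 169 to 643 bp away.

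Among regions that lacked H3K27me3 in WT dox cells alone, the highest-scoring was on chromosome 4 from 88926788 to 88929143. H3K27me3 scored 688 in KO dox, 1253 in KO mock and 861 in WT mock cells, the WT dox peak lay 530 bp away, and the overlaps were 242, 167 and 1923 bp. The region on chromosome 2 from 115681344 to 115682475 had scores of 844, 687 and 1123 in the same lists, and its WT dox peak stopped 84 bp short. In KO dox cells alone the mark was lacking on chromosome 13 from 113788470 to 113789621, where it scored 2164 in KO mock, 1720 in WT dox and 1834 in WT mock cells and the KO dox peak lay 307 bp away. In KO mock cells alone it was lacking on chromosome 8 from 14089112 to 14090955, where it scored 2309 in KO dox, 1693 in WT dox and 1874 in WT mock cells and the KO mock peak lay 9 bp away. In these 4 regions a peak was thus present within 1 kb in the list counted as lacking it, and its score was not examined.

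Larger differences were found where neighbouring regions lacked H3K27me3 together. When regions less than 50 kb apart were grouped, 604 stood alone and 29 groups held the other 76, of which 4 groups held 3 or more. The largest was on chromosome 11 from 96132167 to 96204052, with 9 H3K4me3 regions in 71.9 kb. H3K27me3 covered 38.7 kb of it in KO dox, 70.7 kb in KO mock, 52.0 kb in WT dox and 0 kb in WT mock cells, and was found at 8, 9, 8 and 0 of its 9 regions. At the region from 96143469 to 96149280 it scored 601 in KO dox, 467 in KO mock and 1161 in WT dox cells, while the nearest WT mock peak was 22183 bp away. The WT mock peaks on both sides of that region have consecutive peak numbers, with 0 numbers missing between them. Such consecutive numbers were the exception over all varying regions lacking a peak. Their share was 18.5% in KO dox, 19.2% in KO mock, 18.9% in WT dox and 21.8% in WT mock cells.

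The second group, on chromosome 15 from 102810383 to 102866973, held 7 H3K4me3 regions, all with H3K27me3 in KO mock, WT dox and WT mock cells and without it in KO dox cells. H3K27me3 covered 1.96 kb of its 56.6 kb in KO dox, 45.3 kb in KO mock, 16.9 kb in WT dox and 55.4 kb in WT mock cells. Both dox lists were thus below both mock lists in covered length. Scores at the 7 regions ran between 280 and 1540 in KO mock, 107 and 201 in WT dox, and 100.04 and 873 in WT mock cells. Between the flanking KO dox peaks 0 numbers are missing at the region from 102810383 to 102814873. At each of the other regions of the group, from 102820576 to 102866973, 7 are missing. A further group of 4 regions lay on the same chromosome from 102931774 to 103014117, with H3K27me3 at 1 of 4 in KO dox, 3 in KO mock, 0 in WT dox and 4 in WT mock cells. On chromosome 6 from 52107138 to 52177295 the 6 H3K4me3 regions had 4 different patterns and H3K27me3 covered 11.01 to 16.7 kb of 70.2 kb in every list. Without these 4 groups 654 regions were left, and no count of gained or lost regions changed by more than 1.5 times.

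Regions far from any peak in the list that lacked the mark are named here after their values were seen. On chromosome 17 from 39979623 to 39986281 H3K27me3 scored 180 in KO dox, 1039 in KO mock and 185 in WT mock cells, and the nearest WT dox peak was 2629430 bp away. Whether this place holds artefact signal was not tested. On chromosome 4 from 34010363 to 34012617 the scores were 251 in KO dox, 333 in KO mock and 679 in WT mock cells, and the nearest WT dox peak was 682741 bp away. H3K4me3 there scored 2079 in KO dox, 1040 in KO mock, 2520 in WT dox and 1858 in WT mock cells. The percentiles within each list were 41.6, 41.4, 63.7 and 52.6 in the same order. On chromosome 11 from 7111889 to 7114661 the mark scored 513 in KO dox, 473 in KO mock and 231 in WT dox cells, with the nearest WT mock peak 145051 bp away. On chromosome 7 from 70902078 to 70904933 both mock lists had it, with 340 in KO and 257 in WT cells, and the dox peaks were 311004 bp away in KO and 310538 bp away in WT cells. Between the flanking peaks of the lacking list, 0 peak numbers are missing on chromosome 17, 7 on chromosome 4 and 1 on chromosome 11. On chromosome 7, 1 is missing in each dox list.

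H3K4me3, of which the choice of regions used presence alone, was weaker at regions of varying H3K27me3 than at regions without H3K27me3. Each region's highest H3K4me3 score was ranked among the 13107 regions in each list. Regions of varying H3K27me3 had a median percentile of 21.9 in KO dox, 24.5 in KO mock, 33.5 in WT dox and 26.3 in WT mock cells. Regions with H3K27me3 in all 4 lists had 11.3, 15.97, 28.3 and 20.02 in the same order, and regions with none had 53.98 to 56.3. The varying regions thus lay between the other classes in every list, nearer to those with H3K27me3 in all 4. Their H3K4me3 regions were 1864.5 bp long in the median, against 1789 bp with H3K27me3 in all 4 lists and 2416 bp with none.

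Within a list, regions of varying H3K27me3 could be split by whether that list had an H3K27me3 peak. In WT dox cells the median H3K4me3 percentile was 25.4 at the 203 regions with a peak and 36.1 at the 477 without. In the 3 other lists the values lay closer together, at 21.05 with and 22.9 without in KO dox, 24.7 and 24.5 in KO mock, and 25.6 and 28.03 in WT mock cells. At the 105 regions that lacked H3K27me3 in WT dox cells alone, the median H3K4me3 percentile was 20.8 in KO dox, 25.8 in KO mock, 41.8 in WT dox and 29.98 in WT mock cells. WT dox was also the highest list where all 4 had H3K27me3, with 28.3 against 11.3 to 20.02, so that this order was not confined to regions lacking the mark there. At the 20 regions with H3K27me3 in WT dox cells alone, the percentiles were low in every list, at 11.9 in KO dox, 15.1 in KO mock, 10.4 in WT dox and 10.4 in WT mock cells.

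**Figure D5:**
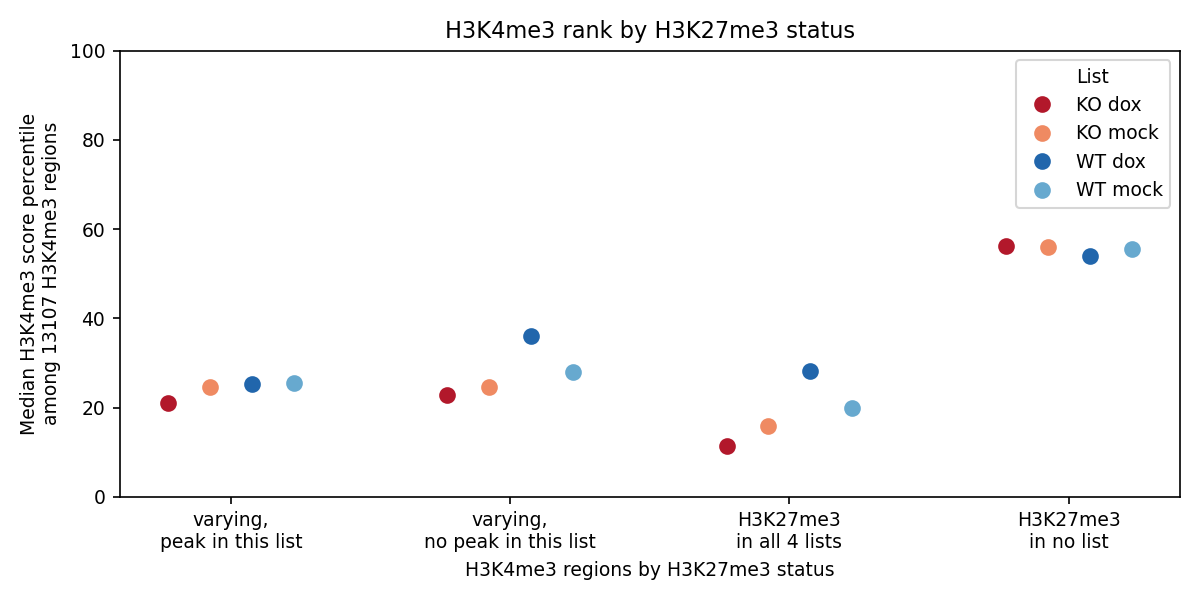
Median percentile of the H3K4me3 score among the 13107 H3K4me3 regions in each list, at regions of varying H3K27me3 with and without a peak in that list, with H3K27me3 in all 4 lists and in none. WT dox has 25.4 with and 36.1 without a peak, and the 3 other lists differ by less between these classes.

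Regions of varying H3K27me3 were found on chromosomes 1 to 19 and X. They made up 25.7 to 43.2% of the H3K4me3 regions with any H3K27me3 on the autosomes. On chromosome X they were 10 of 11, and H3K27me3 in any list was found at 11 of the 407 H3K4me3 regions there.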

How the data were processed

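Peak lists of H3K4me3 and H3K27me3 ChIP-seq, 8 in all with 1 library each, were analysed, 4 input libraries were not used here, and whether libraries came from separate cultures is not given in the sources used here. The submitters' processing notes name Bowtie 0.12.7, MACS 1.4.2 and build mm9. Per the file headers, the score the authors deposited for each peak is minus 10 times the log10 of its p-value. Starts were taken to count from 0 and were raised by 1 bp. Overlapping peaks were joined into regions, an overlap of 1 bp counted as presence, and a region's score in a list was that of its highest-scoring overlapping peak. Named regions were the 3 with the highest lowest score in each pattern by genotype or treatment, and the 2 in each pattern of 1 or 3 lists. The regions and gene lists were chosen with earlier results of these data known. Counts and tables were made with pandas 2.3.3 and numpy 2.4.6 in Python 3.11.15, exact binomial intervals with scipy 1.17.1, and plots with matplotlib 3.10.9. On simulated peaks, planted over part of an isolated region or wholly outside it, 600 of 600 patterns were recovered. That result checks the overlap code only, not the effect of the score floor, the peak ends or the joining. Gene lists, promoters and marker genes were planned but not analysed here, since the gene tables used were not of build mm9. Alternatives varied the score minimum, the number and covered length of peaks, the overlap rule, the regions counted and the joining of H3K4me3 peaks.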

Additional observations from a re-analysis of the deposited data

Results flagged for a closer look

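At 21 regions H3K27me3 was gained with doxorubicin in KO cells and lost with doxorubicin in WT cells, and at 14 regions it was lost in KO cells and gained in WT cells. They stand out because the 1 KO pair and the 1 WT pair of libraries moved in opposite directions. These patterns made up 3.09% and 2.06% of the 680 H3K4me3 regions. Counted as H3K27me3 regions, they made up 2.03% and 2.65% of the 641 varying at H3K4me3, against 3.69% and 2.98% of all varying H3K27me3 regions. They were thus no more frequent here than over all varying H3K27me3 regions. The difference was not tested, since each condition had 1 library. The first kind was led by chromosome 11 from 84325772 to 84327929, with a score of 1451 in KO dox and 2541 in WT mock cells, and with peaks 170 bp away in KO mock and 58 bp away in WT dox cells. The overlaps there were 28 bp in KO dox and 183 bp in WT mock cells. The second was led by chromosome 11 from 96167326 to 96170919, with 1147 in KO mock and 288 in WT dox cells. Its nearest peaks were 237 bp away in KO dox and 38061 bp away in WT mock cells. It lies in the chromosome 11 group of 9 regions, of which 0 had H3K27me3 in WT mock and 8 had it in KO dox cells.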

How the results depend on the processing

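Of 85 values of 9 counts under other settings, 80 were within 1.5 times the reported count. With H3K27me3 within 1 kb counted, KO against WT in dox lost 164 regions, against 104 reported. At equal covered length, a setting added after the data were seen, KO against WT in mock gained 349 and lost 81, against 175 and 155 reported, and dox against mock in WT gained 193 and lost 165, against 102 and 282 reported. The causes were not tested. The total of 680 regions ran between 597 and 815, and leaving out 1 H3K27me3 list at a time gave 549 to 579. Leaving out the groups of 3 or more neighbouring regions, leaving out single lists and counting H3K27me3 regions were also added after the data were seen. No paired analysis was possible because each mark and condition had 1 library. Read depth is unknown, the score floor of 80 and the peak ends limit what counts as absent, and neighbouring regions are not independent.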
